A study of Homo sapiens with 24 samples.

Results

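The data concern the Ago2 binding sites on messenger RNAs (mRNAs) that encode the hnRNP proteins, the SR proteins and the core proteins they work with in splicing. They were chosen by gene name, with earlier results of these data known. The set is every Ago2 peak annotated to a gene named HNRNP, SRSF, SRRM1 or SRRM2, TRA2A or TRA2B, SF3A or SF3B, U2AF, PTBP, SNRNP or SNRP. This gave 523 peaks in 51 genes, of 24041 peaks in 6088 genes. Of these genes, 18 names belonged to the hnRNP group, 13 to SR proteins and their relatives, 7 to the U2 small nuclear ribonucleoprotein (snRNP) and U2AF, 3 to the polypyrimidine tract-binding (PTB) proteins and 10 to other snRNPs.

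Splicing removes introns from pre-mRNA. SR proteins bind exons and mostly promote their inclusion, hnRNP proteins and PTB bind exons and introns and often repress them, and the snRNPs with U2AF recognise the ends of the intron and its branch point. Ago2 is the Argonaute protein that carries microRNAs (miRNAs), which pair through their seed, bases 2 to 8, with sites mostly in the 3'UTR of target mRNAs and lower translation and stability. Many genes of splicing factors also control their own mRNA through alternative exons and long conserved 3'UTRs.

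The treated groups were 293S cells given sodium arsenite at 1 mM for 30 min, and the untreated groups were the same line without it. 293S is an established line from human embryonic kidney, and arsenite is an oxidant stress that halts translation initiation and induces stress granules. RNA crosslinked to Ago2 was recovered with an antibody to Ago2 (CLIP), total RNA was sequenced from the same cultures, and a further CLIP fraction named LO band served for miRNAs, which gives 24 samples in 6 groups of 4 biological replicates. The values below are the authors' deposited values, 1 per peak or miRNA over all replicates, so the spread between replicates and the depth are unknown, no difference could be tested, and all medians and counts are descriptions.

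For each peak the authors give the log of the average CLIP abundance and the log ratio of arsenite-treated over untreated cells, both normalised. The log base and the normaliser are not stated, so a log ratio of 1 is not converted into a fold change. A log ratio above 0 means more Ago2 signal in arsenite-treated cells. Whether a difference in mRNA amount was taken out of the ratio is not known, and the RNA-seq measurements are not used here.

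The peak table also lists which of 50 miRNA seed families each peak matches. The sequences of the miRNAs on which the seed results turn are shown here. Matches to several of these families were rare on splicing factor peaks, and those of miR-324-3p were not. A miR-27 match and a miR-30 match lie at the highest peaks of SNRPB and SRSF1, described below. They are RefSeq sequences (GRCh38.p14), 5′ to 3′, with the seed at bases 2 to 8 in capitals, except for miR-324-3p.
hsa-miR-17-5p: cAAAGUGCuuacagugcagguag
hsa-miR-19b-3p: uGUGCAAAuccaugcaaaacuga
hsa-miR-92a-3p: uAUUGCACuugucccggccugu
hsa-miR-16-5p: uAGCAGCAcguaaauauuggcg
hsa-miR-27a-3p: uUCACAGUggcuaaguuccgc
hsa-miR-30a-5p: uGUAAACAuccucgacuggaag
hsa-miR-324-3p: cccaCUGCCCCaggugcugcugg
The capitals of miR-324-3p mark bases 5 to 11 of the RefSeq entry, the stretch it shares with the seed of miR-1913, with which the authors group it. Of its 7 capitals 6 are C or G, against 3 of the 7 seed bases in miR-17-5p, miR-19b-3p, miR-92a-3p and miR-27a-3p, 2 in miR-30a-5p and 4 in miR-16-5p.

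Splicing factor mRNAs carried many Ago2 peaks, most of them of low average signal. A gene of the set had 10.3 peaks on average and a median of 6, against 3.90 and 2 in all other genes, and 17 of the 51 had at least 10 peaks. The median log average was -6.65 for the 523 peaks and -5.15 for the other 23518. SRRM2 held 64 peaks and HNRNPU 49, and the 5 genes with the most peaks held 39.0% of the set. Peaks were not independent of each other, since 207 of the 523 overlapped another on the same strand.

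With arsenite, most of these peaks had more Ago2 signal, but the median was lower than elsewhere in the transcriptome. The log ratio was above 0 in 352 of the 523 peaks (67.3%), against 70.3% of all peaks in the table, so the share is close to the background. It was above 1 in 155 peaks (29.6%), against 39.1% of all peaks, and below -1 in 38 peaks (7.27%), against 7.43%. The median was 0.45 (quartiles -0.25 and 1.11) in splicing factor genes and 0.66 (quartiles -0.16 and 1.49) in all other genes. The 2 distributions overlapped over most of their range, and whether their medians differ beyond replicate error was not tested.

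Counted by gene, the median log ratio was above 0 in 37 of 51 splicing factor genes, against 81.3% of all genes. The median of these gene medians was 0.55 in splicing factor genes and 0.91 in other genes. At the peak of highest log average of each gene, the log ratio was above 0 in 37 of 51 genes, against 79.9% of all genes, and its median was 0.67 in splicing factor genes and 1.10 in other genes. The number of peaks per gene moved with these values. Among genes with at least 10 peaks, the median over peaks was 0.36 in the 17 splicing factor genes and 0.32 in 512 other genes. The lower median of the set was thus not present among genes with this many peaks.

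**Figure D1:**
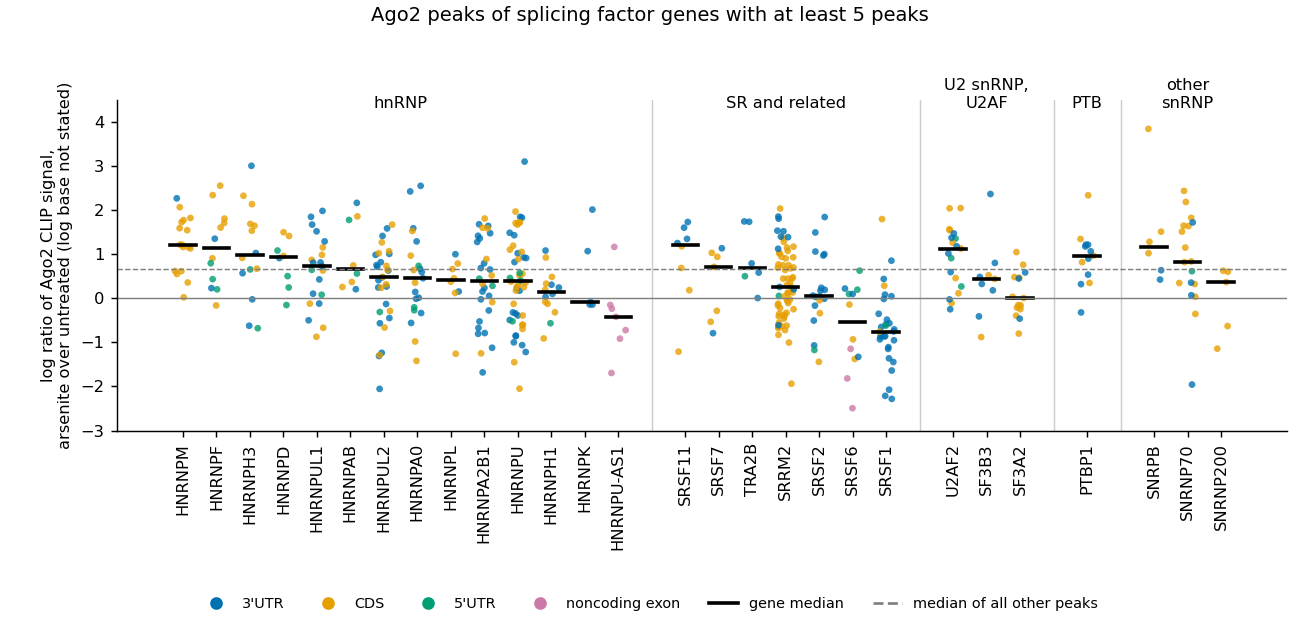
Log ratio of Ago2 CLIP signal, arsenite over untreated (y axis, log base not stated), for each peak (points, coloured by annotated region) of the 28 splicing factor genes with at least 5 peaks, grouped by role on the x axis, with the gene median as a bar. The dashed line is the median of all other peaks, 0.66. SRSF1 has the lowest median, -0.75, and HNRNPM the highest of the hnRNP genes with at least 5 peaks, 1.21.

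The spread lay within genes as much as between them. The standard deviation of the log ratio around the gene means was 0.88, and that of the 51 gene medians was 0.86. Of the 28 genes with at least 5 peaks, 24 had peaks on both sides of 0 and 4 (HNRNPM, HNRNPAB, TRA2B and SNRPB) had all peaks above 0. The same was not counted over the 1442 genes with at least 5 peaks in the whole table. These 2 counts therefore have no background and are not read as a trait of the set. Spearman's rho between log average and log ratio was 0.09 over the 523 peaks and -0.01 over the other 23518, across peaks that share genes and libraries. Even so, over the 197 peaks of the set in the upper 75% of log averages of the whole table the median log ratio was 0.62, against 0.68 for such peaks in other genes.

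The hnRNP genes held 253 peaks with a median log ratio of 0.55. Of these, 182 (71.9%) were above 0, against 70.3% of all peaks. The gene median was above 0 in 15 of 18 names, against 81.3% of all genes, so both shares are near the background. Peaks in their coding sequence (CDS) had a median of 0.65 (n = 112) and those in their 3'UTR 0.48 (n = 109).

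HNRNPM, which regulates alternative exons, had log ratios from 0.02 to 2.27 over 17 peaks with a median of 1.21. Of its peaks, 16 lay in the CDS and all 17 were above 0. HNRNPF, a binder of G-rich tracts, had log ratios of 0.91, 1.60, 2.34, -0.16, 1.81, 1.71 and 2.55 at its 7 CDS peaks. Its 3 peaks in the 5'UTR were lower, at 0.20, 0.43 and 0.79, and its gene median was 1.13 over 12 peaks. HNRNPH3, of the same G-tract binding family, had a median of 0.97 over 14 peaks. Its CDS peaks ranged up to 2.32, all 7 were above 0, and its highest value, 3.004, was at a 3'UTR peak with a miR-221 seed match (chr10:70102764-70102805, plus strand, hg19). HNRNPH1, the third of this family in the table, had a median of 0.15 over 14 peaks and a range of -0.91 to 1.08, so these related genes spanned different ranges.

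HNRNPU, a nuclear matrix and chromatin-associated RNA-binding protein, had 49 peaks with a median of 0.38 and a range of -2.05 to 3.10. Its CDS peaks fell into parts annotated to different transcripts. The 9 peaks annotated to NM_031844, nearest the start of the gene (chr1:245026975-245027552, minus strand), had a median of 0.31 and 5 above 0. The 16 peaks annotated to NM_004501, further downstream, had a median of 0.78 and 13 above 0. The log averages of these 9 and 16 peaks had medians of -7.25 and -8.47. Each peak carries 1 transcript name, so a difference between transcripts is not shown. Its paralogues HNRNPUL1 and HNRNPUL2 had medians of 0.73 (21 peaks) and 0.47 (31 peaks), with ranges of -0.87 to 1.98 and -2.05 to 1.67.

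HNRNPU-AS1, which the rule also takes by its name, is a noncoding RNA and not a splicing factor mRNA. Its 7 peaks had log ratios of -0.72, -0.15, -0.24, -0.42, -1.69, -0.92 and 1.16, and thus 6 of 7 were below 0. The table places them on the minus strand, as it does the peaks of HNRNPU, and past the 3' end of the last HNRNPU peak.

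HNRNPA2B1, which binds and helps sort mRNAs and regulates exons, showed a change of sign along its 3'UTR. The 8 peaks nearest the CDS (chr7:26231346-26231952, minus strand) were all above 0, from 0.15 to 1.68, with a median of 1.39. The 12 peaks beyond the widest gap between its 3'UTR peaks, 504 bases, had a median of -0.40, and 8 were below 0 (chr7:26229995-26230841). This split was chosen after the values were seen, and the log averages of the upstream and downstream peaks had medians of -8.62 and -9.37, both below the gene median of any other named gene. Over all 30 peaks the gene median was 0.39.

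HNRNPA0, which binds AU-rich elements, had the highest log average of the set, -3.01, at a 3'UTR peak with a miR-3065-5p seed match and a log ratio of 0.67 (chr5:137088360-137088446, minus strand). Its 21 peaks had a median of 0.46 and a range of -1.42 to 2.55. HNRNPA1, a widely expressed repressor of exons, had a single 3'UTR peak, at a log average of -3.32 and a log ratio of -0.92. That peak matched the miR-19 seed. HNRNPA1 has many processed pseudogenes, and how reads that map to several places were counted is not given, so its value and its single peak are uncertain; it was named after its value was seen.

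Other hnRNP genes had these values. HNRNPD, which promotes the decay of mRNAs with AU-rich elements, had a median of 0.93 and 7 of 8 peaks above 0. HNRNPAB, a related protein, had all 8 peaks above 0, from 0.21 to 2.16. HNRNPL, which binds CA repeats, had 7 of 8 peaks above 0 with a median of 0.41 and a lowest value of -1.26. HNRNPK, a binder of C-rich RNA, had 5 3'UTR peaks at -0.14, 2.01, -0.14, 1.07 and -0.08, which lay in separate clusters near 0 and above 1. HNRNPA3, HNRNPC and HNRNPR had 1, 2 and 4 peaks with gene medians of 2.35, 1.53 and 0.57.

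Taken over all peaks, the SR proteins and their relatives had the lowest median log ratio of the 5 groups. Their 163 peaks had a median of 0.08, and 89 (54.6%) were above 0, against 70.3% of all peaks. The gene median was above 0 in 8 of 13 genes, against 81.3% of all genes and 6 of 10 other snRNP genes. Without SRRM2, which alone gave 64 of the SR peaks, the median over SR peaks was -0.010. Without SRSF1 it was 0.21 over 133 peaks. Over the 10 SRSF genes alone, 41 of 91 peaks (45.1%) were above 0, with a median of -0.10. SRSF1 gave 30 of these 91 peaks and 6 of the 41 above 0. At the peak of highest log average in each gene, however, the median over the 13 genes was 0.77. That is the same to 2 decimals as in the hnRNP genes, and below the 1.10 of other genes. In the remaining groups it was 0.24 in other snRNP genes, 0.45 in U2 snRNP and U2AF genes and 0.72 in PTB genes. At the strongest peak of each gene, the SR genes were thus not the lowest group. Over the 46 SR peaks in the upper 75% of log averages of the whole table, by contrast, the median stayed low. It was 0.05 there, against 0.69 for such peaks in hnRNP genes.

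SRSF1, the prototype SR protein, had the lowest median of the 28 genes with at least 5 peaks. Over its 30 peaks the log ratio ranged from -2.28 to 1.80 with a median of -0.75, and 24 were below 0. Among the 529 genes with at least 10 peaks, its median was the 14th lowest, and among the 188 genes with at least 10 3'UTR peaks its 3'UTR median, -0.85, was the 5th lowest. Its 26 3'UTR peaks run over chr17:56078430-56083027 (minus strand), and 22 were below 0, spread along that range. The range joins 3'UTR peaks annotated to NM_006924 and to NM_001078166, and an NM_006924 CDS peak, at 0.28, lies within it. The 5 3'UTR peaks that matched a seed had log ratios of 0.05, -0.87, -2.21, -2.07 and 0.85. The 21 without a match had a median of -0.84. In its CDS, by contrast, the 3 peaks had log ratios of 1.80, 0.28 and -0.76, and the first matched the miR-30 seed shown above (chr17:56083212-56083291). The log averages of these 3 CDS peaks were -6.07, -6.01 and -7.21, while those of the 3'UTR peaks had a median of -7.49 and reached -6.05. At its peak of highest log average, which lay in the CDS, the log ratio was 0.28, of the opposite sign to that over all 30. The median over its 3 peaks in the upper 75% of log averages of the whole table was also 0.28. These 3 were the CDS peaks at 1.80 and 0.28 and the 3'UTR peak of log average -6.05. That 3'UTR peak had a log ratio of -0.75.

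SRSF6 had a median of -0.54 over 12 peaks. Its lowest 2 values, -2.49 and -1.82, were among 3 neighbouring peaks within chr20:42087825-42087989 (plus strand) annotated to its noncoding transcript NR_034009, and the third of these had -1.15. Its other 9 peaks had a median of 0.10 and a range of -1.38 to 0.63, with a CDS peak at -1.38 and a 3'UTR peak at -1.33 as the lowest. SRSF2 had 19 peaks with a median of 0.04. Its 3'UTR peaks reached 1.84 and 11 of 15 were above 0, whereas its 3 CDS peaks (-0.05, -1.44 and -0.34) and its 5'UTR peak (-1.17) were below 0.

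Not all SR genes were low. SRSF3 had 4 peaks at 2.03, 1.00, 1.11 and 1.48, from the 5'UTR to the 3'UTR. SRSF11 had log ratios of 1.73, 1.35, 1.25 and 1.60 at its 4 3'UTR peaks, and a median of 1.22 over 8. TRA2B, an activator of exons with purine-rich enhancers, had all 6 peaks above 0 with a median of 0.69. SRSF7 had a median of 0.71 over 7 peaks. SRSF10, which represses splicing when dephosphorylated under heat stress, had 1 peak, at -1.29, and SRSF4, SRSF5 and SRSF9 had 3 or 4 peaks each with medians of -0.09, 0.55 and -0.75.

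SRRM2 and SRRM1 encode large serine- and arginine-rich proteins of the spliceosome that differ from SRSF proteins in lacking the usual RNA recognition motif. SRRM2 had 53 peaks in its CDS with a median of 0.13 and 30 above 0, and 10 in its 3'UTR with a median of 1.39 and 9 above 0. The 3'UTR peaks lie within chr16:2820858-2821323 (plus strand) and had log averages similar to those of the CDS, with medians of -7.36 and -7.56. SRRM1 had 2 peaks, at 2.79 and 1.64, and that at 2.79 matched the miR-15/16 seed.

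**Figure D2:**
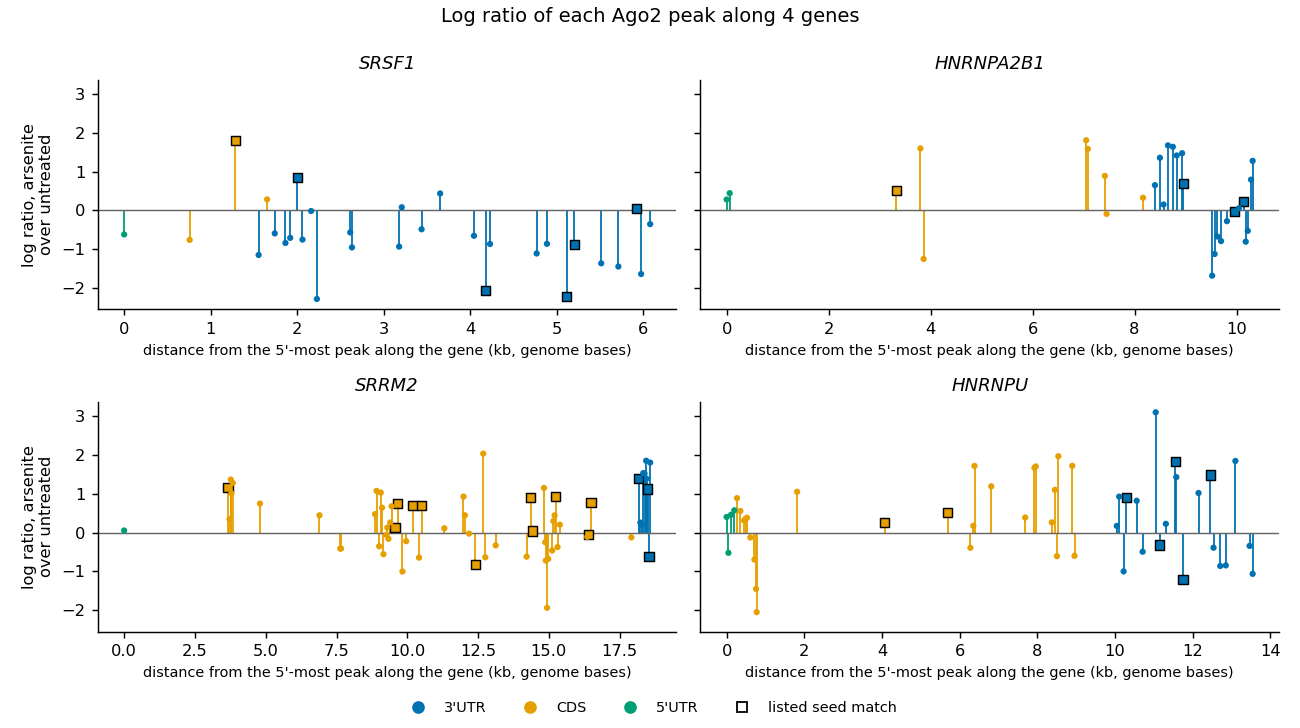
Log ratio, arsenite over untreated (y axis), of each Ago2 peak of SRSF1, HNRNPA2B1, SRRM2 and HNRNPU against its distance along the gene from the 5'-most peak, in kb of genome sequence. Circles and squares are coloured by region, and black-edged squares have a listed seed match. Of the 26 SRSF1 3'UTR peaks, 22 are below 0, the HNRNPA2B1 3'UTR changes sign beyond its widest gap, and 9 of 10 SRRM2 3'UTR peaks are above 0.

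In the U2 snRNP and U2AF group, 35 of 51 peaks (68.6%) were above 0, against 70.3% of all peaks, and the median was 0.47. U2AF2, the large U2AF subunit that binds the polypyrimidine tract, had 19 peaks with a median of 1.13, of which 16 were above 0. Its small partner U2AF1, which reads the AG at the 3' splice site, had peaks at 0.72 and 1.28. SF3A2, a subunit of the U2 snRNP, had values close to 0, with a median of 0.005, a range of -0.80 to 1.05 over 15 peaks within 1 stretch of its gene, and high log averages up to -3.79. The SF3B subunits, which hold the branch point, did not share a level: SF3B4 had 1 CDS peak at 2.97, SF3B3 had a median of 0.44 over 9 peaks, and SF3B1 and SF3B2 had medians of -0.30 over 3 peaks and -0.29 over 2.

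The PTB genes, repressors of exons flanked by pyrimidine tracts, had 17 of 18 peaks above 0, against 70.3% of all peaks. Their median was 0.86. PTBP1 had 13 peaks with a median of 0.97, from -0.32 to 2.33. PTBP3 had 4 peaks, all in the 3'UTR, from 0.22 to 1.28, and the neural paralogue PTBP2 had 1 CDS peak at 0.72, the only peak of the set that matched the let-7 seed.

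The other snRNP genes had a median of 0.63 over 38 peaks, with 29 (76.3%) above 0, against 70.3% of all peaks. SNRPB, which encodes the Sm proteins B and B', held the highest log ratio of all 523 peaks, 3.84, at a CDS peak with a miR-27 seed match (chr20:2448254-2448316, minus strand). Its other CDS peaks had 1.28, 1.02 and 1.51 and its 3'UTR peaks 0.64 and 0.42, so all 6 were above 0. SNRNP70, a protein of the U1 snRNP, had 16 of 18 peaks above 0 with a median of 0.83, and its lowest value, -1.96, was in the 3'UTR. SNRNP200, the helicase that unwinds U4 from U6, had CDS peaks at -1.14, 0.62, 0.37, -0.63 and 0.60. The 7 remaining genes had 1 peak each, except SNRPF with 3, and gene medians from -0.51 to 1.92. SNRPF has 2 overlapping peaks with equal values, which may count 1 site more than once.

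**Figure D3:**
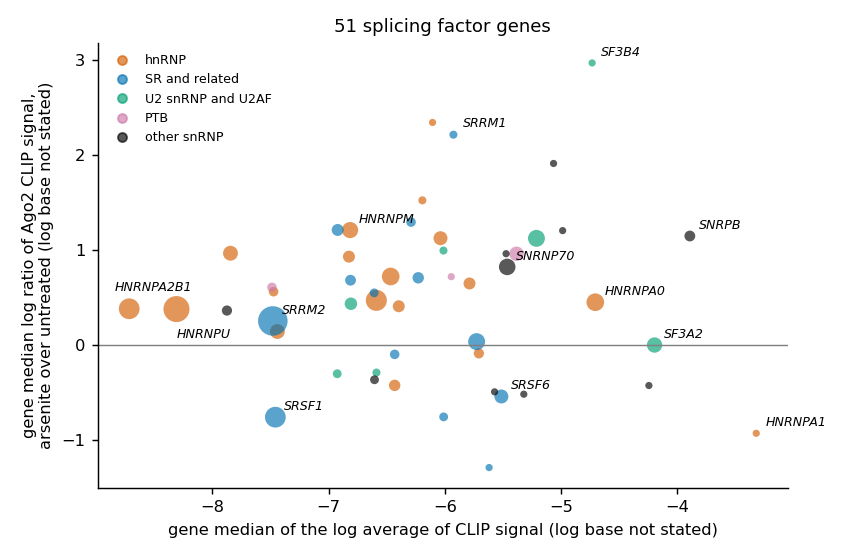
Gene median of the log ratio, arsenite over untreated (y axis), against the gene median of the log average (x axis), log base not stated, for the 51 splicing factor genes, coloured by role, with point area growing with the number of peaks. Genes of high and low average signal occur on both sides of 0. HNRNPA1, at -0.92, rests on 1 peak and SRSF1, at -0.75, on 30.

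By region, the medians of splicing factor and other genes were furthest apart in the 3'UTR, noncoding exons aside. In the 3'UTR the median was 0.41 over 221 peaks in splicing factor genes and 0.88 over 12030 peaks in other genes. In the CDS it was 0.52 over 250 peaks and 0.58 over 8053, and in the 5'UTR 0.34 over 42 and 0.25 over 2127. In other genes the median thus stepped down from the 3'UTR through the CDS to the 5'UTR, while in splicing factor genes the CDS median was above that of the 3'UTR. The 10 noncoding exon peaks, all from HNRNPU-AS1 and SRSF6, had a median of -0.82, against -0.17 over 1308 in other genes. The CDS held a larger share of the peaks in splicing factor genes, 47.8% against 34.2%, and the 3'UTR a smaller one, 42.3% against 51.2%.

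SRSF1, the number of peaks and the average signal all moved with the 3'UTR value. Without SRSF1 the 3'UTR median of splicing factor genes was 0.59. In genes with at least 10 peaks, the 3'UTR median was 0.24 in splicing factor genes and 0.53 in other genes, and the CDS median was 0.48 in splicing factor genes and 0.31 in other genes. For 3'UTR peaks whose log average lay between the quartiles of the set, the medians were 0.59 over 102 peaks in splicing factor genes and 0.90 over 3446 in other genes.

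**Figure D4:**
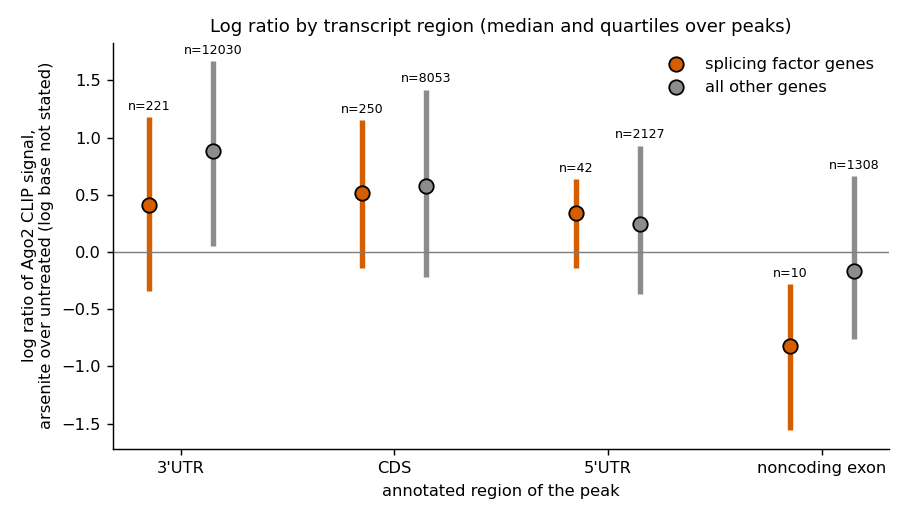
Median (points) and quartiles (bars) of the log ratio, arsenite over untreated (y axis, log base not stated), by annotated region of the peak, for splicing factor genes and all other genes, with the number of peaks above each bar. The 3'UTR medians are 0.41 and 0.88, and the CDS medians 0.52 and 0.58, for splicing factor genes and other genes in that order.

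Of the peaks on splicing factor mRNAs, 103 (19.7%) held at least 1 match to the 50 listed seed families, against 31.8% of peaks in other genes. Neither this difference nor those by seed that follow could be tested, and matched peaks of 1 mRNA share their gene. In splicing factor genes the median log ratio was 0.44 with a match and 0.45 without, whereas in other genes it was 1.07 with a match and 0.48 without. Pooled over regions, peaks without a match were therefore close between splicing factor and other genes, and peaks with a match were not. By region, the unmatched median of splicing factor genes was below that of other genes in the 3'UTR. It was above that of other genes in the CDS and in the 5'UTR (0.44 against 0.23). In the 3'UTR the median of splicing factor genes was 0.32 with a match and 0.42 without, and that of other genes 1.21 and 0.68. In the CDS it was 0.52 both with and without a match in splicing factor genes, and 0.98 and 0.45 in other genes.

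Peaks with and without a match were also compared within each gene and region. Over the 43 gene and region pairs of the set that had peaks of both kinds, the median difference, match minus no match, was 0.001 and 22 of 43 were positive (51.2%). Over 2611 such pairs in other genes it was 0.25, and 60.4% were positive. In the 3'UTR the difference was positive in 9 of 19 pairs of the set (47.4%) and in 62.6% of pairs in other genes. In the CDS it was positive in 12 of 21 pairs of the set (57.1%), with a median of 0.09, and in 58.5% of pairs in other genes, with a median of 0.23, so the shares differed little there. In genes with at least 10 peaks, matched and unmatched peaks had medians of 0.35 and 0.38 in splicing factor genes, and 0.55 and 0.25 in other genes. When each gene was represented by its peak of highest log average, matched peaks were higher in the set too, at 0.85 with a match and 0.56 without, against 1.42 and 0.79 in other genes.

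The families were spread unevenly. In other genes, 15 families with at least 100 peaks had a median log ratio above 1, a grouping made after the values were seen, and they include miR-17, miR-19, miR-25/92, miR-27, miR-30 and let-7. Peaks matching any of these made up 26 of 523 (4.97%) in splicing factor genes and 16.6% in other genes, with medians of 0.62 and 1.47. Peaks matching only other families made up similar shares, 14.7% in splicing factor genes and 15.2% in other genes, with medians of 0.35 and 0.55. Because the 15 families were picked by their medians in other genes, the 1.47 and 0.55 of other genes follow from that choice. No conclusion is therefore drawn from setting the medians of splicing factor genes against them. The difference in the share of matched peaks was thus almost wholly in the 15 families.

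Single families rest on few member peaks. The miR-17 seed was in 1 peak (0.19%), in SRSF2 with a log ratio of 0.97, against 3.04% of other peaks. The miR-25/92 seed was in 0 peaks, against 1.83%, and the let-7, miR-130 and miR-103 seeds were in 1 each. The miR-15/16 seed was in 7 peaks (1.34% against 4.20%), with a median of 0.44 in splicing factor genes and 0.93 in others. The miR-19 seed was in 5 peaks of 5 genes, at 2.36 in SF3B3, 1.83 in HNRNPU, 1.29 in HNRNPUL1, 0.23 in HNRNPF and -0.92 in HNRNPA1. The miR-27 seed was in 5 peaks, all above 0, from 0.45 in HNRNPL to 3.84 in SNRPB. The median of these miR-27 peaks was 0.85, against 1.21 in other genes, and that of the miR-19 peaks 1.29, against 1.57. Both families are among the 15 picked by their medians in other genes.

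The seed of miR-324-3p and miR-1913 was the most frequent on splicing factor mRNAs, in 13 peaks (2.49%), against 1.12% in other genes. These lay in 5 genes, namely SRRM2 with 6, HNRNPD with 4, and U2AF2, SNRNP200 and SNRNP70 with 1 each, so most of them share an mRNA with another. Their median log ratio was 0.13 in splicing factor genes and 0.22 in other genes. The seed of miR-28-5p and miR-708-5p was in 5 peaks of SF3A2, SRRM2 and HNRNPL, with a median of -0.25 in splicing factor genes and 0.23 in others. Most of these peaks were neighbours in the SF3A2 CDS, some of them overlapping, so they are not separate sites of different genes. The miR-29 seed went the other way. Its 4 peaks, in PTBP3, TRA2B, U2AF2 and SNRPB, had log ratios of 1.28, 1.74, 2.04 and 1.51, with a median of 1.62, against 0.77 in other genes. Of the 14 families with at least 4 peaks in the set, 12 had a lower median in splicing factor genes than in other genes.

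**Figure D5:**
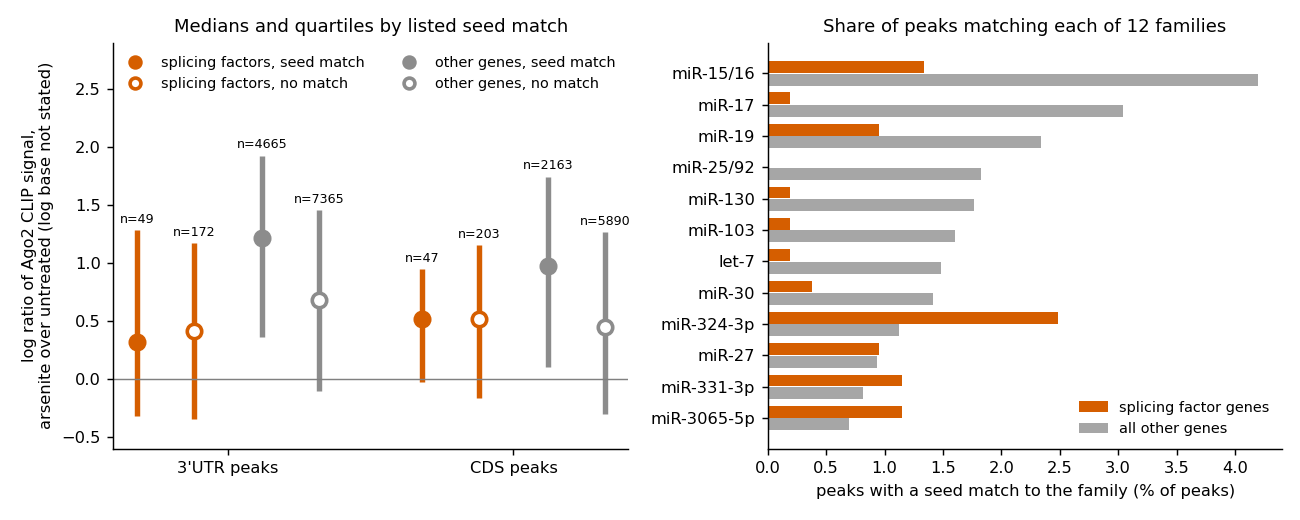
Left, median (points) and quartiles (bars) of the log ratio, arsenite over untreated (y axis, log base not stated), of 3'UTR and CDS peaks with (filled) and without (open) a listed seed match, in splicing factor genes and other genes. Right, share of peaks (x axis, %) matching each of 12 seed families. Splicing factor 3'UTR peaks have medians of 0.32 and 0.42 with and without a match, other genes 1.21 and 0.68, and miR-17 matches 0.19% of splicing factor peaks and 3.04% of others.

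The Ago2-bound amounts of these miRNAs are given in the authors' deposited table of the LO band, as normalised means over replicates. For miR-324-3p the authors' deposited table gives means of 105288 in arsenite-treated and 159639 in untreated cells, a log2 fold change of -0.60 with a p-value of 0.008 and an adjusted p-value of 1. For miR-708-5p the authors' deposited table gives a log2 fold change of -0.49. The authors' deposited table has smaller log2 fold changes for miR-17-5p (-0.02), miR-19b-3p (-0.13), miR-92a-3p (0.17), miR-16-5p (0.02), miR-27a-3p (-0.07) and miR-30a-5p (-0.15). None of these miRNAs passed an adjusted p-value of 0.05 in the authors' deposited table.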

How the data were processed

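Ago2 CLIP, RNA-seq and LO band libraries of 293S cells were made with and without arsenite, in 6 groups of 4 replicates. Per the submitters' processing notes, Bowtie 0.12.8, TopHat and DESeq were used with hg19, without their roles. The peak caller and the normaliser were not named in any source used. The authors deposited a log average and a log ratio per peak on an unstated log base, and per miRNA a mean signal (normalised reads) for each treatment, the ratio (fold) of the means, its log2 value, and a p-value with its adjusted p-value. Columns of single samples numbered 0, so the planned limma test could not be run and no replicate error is known.

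Peaks were selected by gene name, and medians, quartiles and counts were computed with Python 3.11.15, pandas 2.3.3 and NumPy 2.4.6, on values as deposited, without filtering. The code was checked on simulated data. Peaks overlapping by at least 1 base were counted as overlapping. Genes were named where they had at least 5 peaks, or the highest or lowest log ratio or the highest log average of their role group. The other members are given for completeness, with their values known when they were named. Members, role groups and lists were chosen with earlier results of these data known. The base from which peak starts are counted is unstated. Alternatives were 1 peak per gene, gene medians, peaks in the upper 75% of log averages, removal of overlaps, and removal of noncoding members. A further list of splicing genes is not reported here.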

Additional observations from a re-analysis of the deposited data

How the results depend on the processing

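No paired analysis was possible because the tables hold no column of a single sample, and replicates could not be left out in turn for the same reason. Of 81 recomputed medians and shares of the set, its roles, regions and seed classes, 64 stayed within the 95% order-statistic or exact binomial interval of the value given, 16 moved beyond it and 1 changed sign. With 1 peak per gene, that of highest log average, the median over all was 0.67, with 72.5% above 0, against 80.0% in other genes. That median was 0.77 in hnRNP genes, 0.77 in SR genes and 0.24 in other snRNP genes. It was 0.67 in the 3'UTR, 0.72 in the CDS and 0.85 with a seed match. With gene medians, 72.5% were above 0, against 81.4% in other genes, and the SR median was 0.26. With peaks in the upper 75% of log averages, which kept 197 of 523, the median was 0.62. Of these peaks, 72.1% were above 0, against 70.7% in other genes. Their median was 0.69 in hnRNP genes, 0.64 in the 3'UTR, 0.745 in the CDS and 0.63 without a seed match. Without SRRM2, an alternative chosen after seeing the data, the SR median was -0.010. Without SRSF1, likewise chosen after seeing the data, it stayed within its interval at 0.21. Of 55 gene values, 40 stayed, 11 moved and 4 changed sign, namely SRSF1 at 0.28 at its peak of highest log average and 0.28 over its peaks in the upper 75%, SRSF6 at 0.10 and SNRNP200 at -0.63 at their peaks of highest log average. The SRSF1 value with low peaks removed rests on 3 peaks, CDS peaks at 0.28 and 1.80 and a 3'UTR peak at -0.75. The cause was not tested. Removing overlapping peaks or noncoding members moved no median or share beyond its interval. With no depth, error or log base given, no value here can be set against counting or replicate error.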

Other observations

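Other splicing genes, from lists made with earlier results of these data known, had these values. Of 37 core spliceosome genes outside the set, 19 had peaks and the gene median was above 0 in 16, against 81.3% of all genes. Their 109 peaks had a median log ratio of 0.66, with 1.05 at peaks with a seed match and 0.62 at those without. Of 8 kinases that act on SR proteins or the spliceosome, 6 had peaks. The gene median was above 0 in 3 of the 6, against 81.3% of all genes. The 20 peaks of these kinases had a median of 0.27. In the kinases the median was -0.38 over 9 peaks with a seed match and 0.30 over 11 without. No difference between these lists was tested.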
